A study of Oryza sativa with 36 samples.

Results

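The comparison described here is the change in the rice embryo over the first 4 h of imbibition, the uptake of water by a dry seed. Its members were all rice probe sets of the Affymetrix rice array, 57194 of the 57381 in the deposited table after the control and reporter probe sets were left out. They were read on 6 of the study's 36 arrays, 3 at 0 h (replicates 1, 4 and 5) and 3 at 4 h (replicates 1, 4 and 5). Genes are given by the brightest probe set of each, 17905 in all, of which 2460 had an informative name.

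The study followed embryo and endosperm of Oryza sativa seeds at 6 times up to 24 h. The 0 h group held untreated dry seed. The 4 h group held seed kept for 4 h in 450 ml of sterile distilled water, bubbled with air, at 30 °C in darkness. The cultivar Nipponbare is named in the labels of most arrays, but the labels of replicate 1 at both times and of replicate 4 at 4 h give the species alone. The tissue label reads embryo, while the growth notes of the same arrays speak of the embryonic axis, so whether the scutellum was included is not settled by the labels. Endosperm at 0 h and 4 h, 3 arrays each (replicates 1, 2 and 3) from seed handled alike, served as the other tissue. These replicates came from harvest days 1, 2 and 3 at both times. Values are log2 GCRMA signals, in which each unit is a doubling. The value that follows ± is limma's standard error of a log2 difference, n = 3 arrays per group, and every adjusted p is from limma with Benjamini-Hochberg adjustment over all rice probe sets. A probe set was called when its adjusted p was below 0.05 and its log2 difference was at least 1, and "rose" and "fell" are used of called values only. The labels give a harvest day for each array but do not say whether replicates were separate seed lots or cultures, so part of the spread behind the p-values may be technical.

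A dry cereal embryo holds stored transcripts laid down during maturation, among them those of late embryogenesis abundant proteins, heat shock proteins and ribosomal proteins. On wetting, respiration resumes within minutes and transcription within hours, well before the radicle emerges. Submerged rice seed can run glycolysis into ethanol with pyruvate decarboxylase and alcohol dehydrogenase, and rice is known for germinating with little oxygen. Abscisic acid (ABA) holds a seed dormant, and gibberellins, ethylene and jasmonates take part in the hormone network that surrounds germination.

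The 6 arrays separated by time. Correlations over probe sets were 0.989 to 0.992 among the 0 h arrays, 0.995 to 0.997 among the 4 h arrays and 0.937 to 0.958 between the times. Of the 10 embryo markers listed, 6 were matched by name and none lay below the array medians at both times. That is a low bar, which only 1 of 9 matched endosperm markers missed. OSH1, a homeobox gene of the shoot meristem, read 7.86, 8.21 and 8.37 at 0 h and 8.54, 8.17 and 8.33 at 4 h, against means of 3.28 and 3.72 in endosperm. At 0 h Emp1 averaged 14.06 against 13.47 in endosperm and VP1 9.24 against 8.98, while the other matched embryo markers lay further above endosperm. Endosperm transcripts were also present: 9 of 12 endosperm markers were matched, and their summed linear signal was 2980 to 3320 at 0 h and 858 to 2850 at 4 h. The lowest of these sums was that of replicate 5 at 4 h, where the glutelin GLUA2 read 6.88 against 8.57 and 9.07 in the other 4 h arrays and 13.48 in endosperm. Replicate 4 at 0 h stood apart from the other dry arrays in a different way: for 209 of the probe sets that rose it lay more than 1 unit above both other 0 h arrays, against 23 for replicate 1 and 11 for replicate 5. Where leaving out 1 of these arrays moved a change printed below by over 1.5-fold, the value without it is given. The arrays came from 3 harvest days, with both replicate 1 arrays on day 1, both replicate 4 arrays and the 0 h replicate 5 array on day 8, and the 4 h replicate 5 array on day 9.

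At 4 h 4071 probe sets (7.12%) were higher and 2425 (4.24%) lower than in the dry embryo. By gene the numbers were 2557 of 17905 higher (14.3%) and 1354 lower (7.56%). Those percentages are the background for the counts of gene lists below. At an unadjusted p below 0.05 in limma, with no minimum fold, 32909 of the 57194 probe sets differed, the background for counts at that p. With an adjusted p below 0.05 and no minimum fold, 20948 were lower and 7493 higher. The lists hold only genes matched by an informative name, so a list need not hold a whole family. Of the 2460 genes with such a name, 431 were called higher and 188 lower, so rises were more frequent among them than over all genes. Over all probe sets the rises were steeper than the falls. The median called rise was 1.83 and the median called fall -1.26, and 807 probe sets rose by at least 3 (8-fold) while 9 fell by as much. The largest rise was 9.38 and the largest fall -5.10. Probe sets that rose started from a median level of 4.68 at 0 h, and 13.3% of them started below the highest array median of 2.93, where GCRMA leaves little range. Probe sets that fell started from a median of 7.35. Of the 2860 brightest probe sets, 5% of all, 9.37% were called higher and 7.94% lower, against 7.12% and 4.24% of all probe sets. In bulk tissue, fewer cells of a type and less RNA per cell cannot be told apart.

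**Figure D1:**
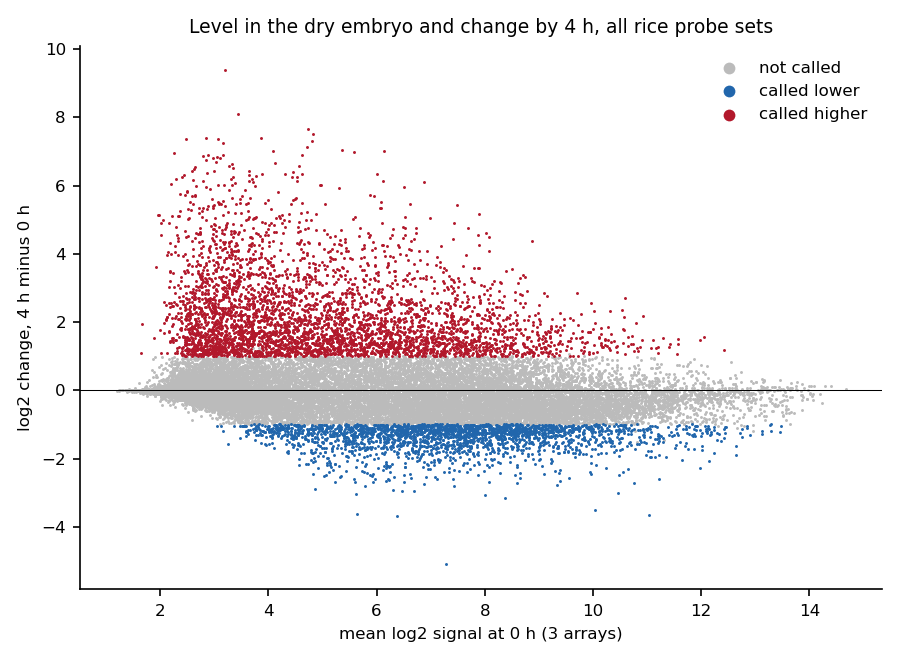
Each point is 1 of 57194 rice probe sets, with its mean log2 signal in the 3 dry embryo arrays on the x axis and its log2 change by 4 h on the y axis, coloured by call. Rises reach 9.38 and start from a median dry level of 4.68, against 7.35 for falls, and only 1 called fall is as large as 4 units.

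The split between rises and falls depended on how the arrays were scaled. As deposited, 62.7% of calls were rises and the median change was -0.04. The 75th percentile of the arrays was 5.21 to 5.39 at 0 h and 5.58 to 5.65 at 4 h, and centring on it gave 40.4% rises with a median change of -0.34. The hybridisation spike-ins, RNAs added at a fixed amount, averaged 9.83, 10.56 and 10.59 at 0 h and 9.45, 10.24 and 10.20 at 4 h (exact 2-sided permutation p = 0.5). Centring on them gave 86.2% rises with a median change of 0.33, and quantile normalization gave 52.6% with -0.01. Changes of at least 3 also moved in number, from 807 rises and 9 falls as deposited to 644 and 19 with 75th percentile centring, 1064 and 5 with spike-in centring and 748 and 12 with quantile normalization. Centring shifts every change by the same amount, here under 1 unit, so it could not turn the sign of a call. Under quantile normalization, where it could have, no called probe set changed sign. Under all 4 scalings 3161 rises and 902 falls were called. Genes described below that lost a call under a scaling are given with that limit, as are the lists whose split of rises and falls turned or evened out.

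**Figure D2:**
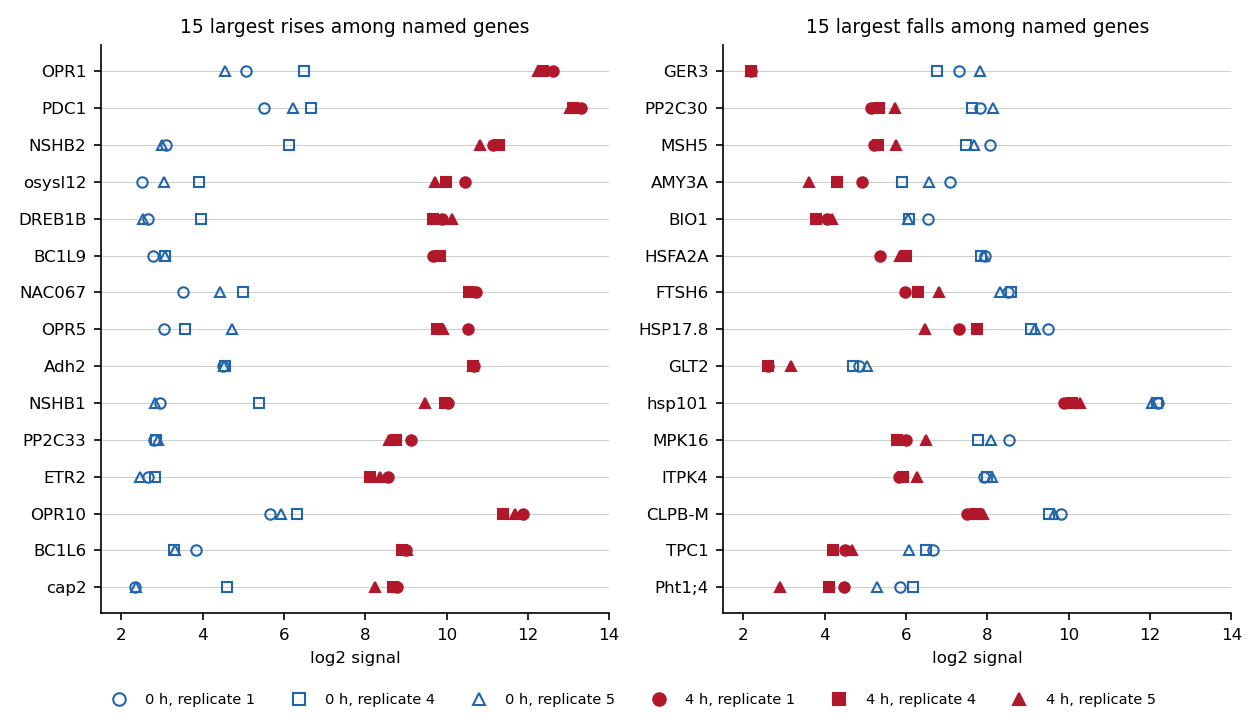
Log2 signal in each of the 6 embryo arrays for the 15 largest rises and the 15 largest falls among named genes, with open symbols for 0 h, filled symbols for 4 h and 1 symbol shape per replicate. The genes were chosen among those whose groups did not overlap, and replicate 4 at 0 h lies above the other dry arrays for NSHB2, NSHB1 and cap2.

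The largest rises of all belonged to 2 genes with no informative name in the tables used here. LOC4347412 read 2.49, 4.54 and 2.57 at 0 h and 12.49, 12.78 and 12.44 at 4 h, a rise of 9.38 ± 0.54 (adjusted p = 2.38e-13). LOC4347408, separated from it by 3 genes on the same chromosome, read 3.02, 4.21 and 3.11 at 0 h and 11.73, 11.56 and 11.30 at 4 h, a rise of 8.09 ± 0.37 (adjusted p = 3.01e-15). Replicate 4 at 0 h was the high dry array for both, and without it the rises were 10.05 and 8.47. Both went to within the upper range of the array in every 4 h sample.

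Genes of ethanol fermentation and sucrose use were among the steepest risers. Of 24 listed genes of fermentation and glycolysis, 7 rose (29.2%) and 1 fell. PDC1, a pyruvate decarboxylase, read 5.50, 6.66 and 6.22 in the dry embryo and 13.30, 13.10 and 13.04 at 4 h, a rise of 7.02 ± 0.52 or 130-fold (adjusted p = 3.11e-11). Adh2, an alcohol dehydrogenase, read 4.50, 4.55 and 4.52 at 0 h and 10.67, 10.64 and 10.65 at 4 h, a rise of 6.13 ± 0.32 or 69.9-fold (adjusted p = 2.72e-14). For Adh2 the arrays of each group read nearly alike, and the groups were far apart. PDC2, another pyruvate decarboxylase, was already at 11.43, 11.51 and 11.76 in dry tissue and reached 13.12, 13.11 and 12.98, a rise of 1.5 ± 0.13 (adjusted p = 3.02e-10). PDC3 was at 2.29 to 2.33 on all 6 arrays. Levels of different probe sets are not on a common scale and are not ranked here.

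The sucrose synthases, which split sucrose to feed glycolysis and wall synthesis, moved in opposite directions. SUS1 read 5.61, 7.14 and 5.96 at 0 h and 11.04, 10.69 and 10.35 at 4 h, a rise of 4.46 ± 0.36 (adjusted p = 1.11e-10). SUS2 rose by 4.29 ± 0.37 (adjusted p = 5.1e-10), and by 5.02 without replicate 4 at 0 h, and SUS3 by 4.23 ± 0.34 (adjusted p = 1.27e-10). SUS4 read 12.01, 11.56 and 11.55 at 0 h and 9.91, 10.02 and 10.28 at 4 h, a change of -1.64 ± 0.26 (adjusted p = 9.87e-06). FBA1, a fructose-bisphosphate aldolase, read 7.33, 9.39 and 7.33 at 0 h and 12.85, 12.70 and 12.37 at 4 h. It rose by 4.62 ± 0.57 (adjusted p = 2.4e-07), and by 5.31 without replicate 4 at 0 h, the array with the high dry value. SUS1, SUS2, SUS3 and PDC3 were named after their values were seen, to give further members of both families. Hexokinases and cytosolic glyceraldehyde-3-phosphate dehydrogenases on the list were not called.

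NSHB1 and NSHB2 rose with them. They are of the non-symbiotic haemoglobins, which bind oxygen and nitric oxide and are known in plants for induction under low oxygen. NSHB2 read 3.11, 6.12 and 3.0 at 0 h and 11.13, 11.29 and 10.83 at 4 h, a rise of 7.01 ± 0.66 (adjusted p = 2.33e-09). NSHB1, on a probe set of a type that can also read near-identical transcripts, read 2.96, 5.38 and 2.83 at 0 h and 10.04, 9.97 and 9.48 at 4 h, a rise of 6.11 ± 0.56 (adjusted p = 1.41e-09). In both, replicate 4 at 0 h was the high dry array, and without it the rises were 8.03 and 6.93. AOX1a, the alternative oxidase of mitochondria, rose by 1.64 ± 0.19 (adjusted p = 8.32e-08) and was the only called member among 15 genes of the tricarboxylic acid cycle and respiration. With 75th percentile centring 1 member of that list was called lower.

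Oxylipin genes formed another steep group. Of 36 listed genes of jasmonate and oxylipin synthesis and signalling, 17 rose (47.2%) and 2 fell (5.56%), with a median change of 0.63 against -0.05 over all genes. The 17 and 2 were the same counts whichever of the 6 arrays was left out. OPR genes encode 12-oxophytodienoate reductases, enzymes of the family that carries out a step of jasmonate synthesis. OPR1 read 5.07, 6.5 and 4.56 at 0 h and 12.61, 12.38 and 12.24 at 4 h, a rise of 7.04 ± 0.47 or 131-fold (adjusted p = 3.14e-12), the largest among genes with a name. OPR5 read 3.06, 3.56 and 4.72 at 0 h and 10.53, 9.77 and 9.92 at 4 h, a rise of 6.29 ± 0.35 (adjusted p = 9.74e-14). OPR10 rose by 5.69 ± 0.33 (adjusted p = 3.14e-13) and OPR4 by 3.38 ± 0.42 (adjusted p = 2.27e-07).

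These 4 OPR genes lie in a row on chromosome 6, with OPR4, OPR5 and OPR10 next to each other and OPR1 separated from the nearest of them by 1 gene. Family members elsewhere moved less. OPR13, on chromosome 8, rose by 1.73 ± 0.14 (adjusted p = 1.67e-10), OPR12, on chromosome 4, fell by 1.22 ± 0.15 (adjusted p = 2.55e-07) and OPR7, on chromosome 2, changed by -0.56 and was not called. OPR12 lost its call with spike-in centring and with the 6 arrays fitted alone. OPR4, OPR7 and OPR13 were named after their values were seen.

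TIFY proteins of the JAZ type repress jasmonate responses and are themselves jasmonate-induced. TIFY10b read 3.88, 6.71 and 3.19 at 0 h and 9.79, 9.09 and 8.94 at 4 h, a rise of 4.68 ± 0.52 (adjusted p = 4.06e-08). Replicate 4 at 0 h was the high dry array, and without it the rise was 5.74. TIFY10a rose by 4.60 ± 0.12 (adjusted p = 1.76e-19), TIFY11b by 3.81 ± 0.30 (adjusted p = 9.26e-11) and TIFY11d by 1.77 ± 0.12 (adjusted p = 9.26e-12). AOS1, an allene oxide synthase, rose by 2.57 ± 0.23 (adjusted p = 1.16e-09). TIFY5 fell by 1.47 ± 0.18 (adjusted p = 2.46e-07). TIFY10a, TIFY11b and AOS1 were named after their values were seen.

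Transcription factors known for responses to stress rose in 4 families. The counts were 4 of 6 WRKY factors, 7 of 12 ERF and DREB factors, 9 of 23 zinc finger and MYB factors and 3 of 8 NAC factors, and no member of these lists fell by the limma call. At an unadjusted p below 0.05, with no minimum fold, 0 WRKY, 3 ERF and DREB, 1 zinc finger or MYB and 1 NAC gene read lower. Without replicate 4 at 4 h all 6 WRKY factors were called. DREB1B, a factor of cold and drought responses, read 2.65, 3.96 and 2.54 at 0 h and 9.88, 9.66 and 10.13 at 4 h, a rise of 6.84 ± 0.58 (adjusted p = 3.37e-10). DREB1A rose by 3.58 ± 0.40 (adjusted p = 4.8e-08) and DREB1G by 3.41 ± 0.77 (adjusted p = 0.000892), both named after their values were seen, and DREB1G was not called from harvest day 8 alone. NAC067 read 3.52, 4.99 and 4.42 at 0 h and 10.72, 10.55 and 10.65 at 4 h, a rise of 6.33 ± 0.41 (adjusted p = 2.18e-12). WRKY76, a repressor in rice defence, read 2.22, 2.43 and 2.37 at 0 h and 7.55, 7.41 and 7.37 at 4 h, a rise of 5.11 ± 0.28 (adjusted p = 1.06e-13).

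Further risers in these families were MYB2 at 4.66 ± 0.43 (adjusted p = 1.35e-09), the stress-associated zinc finger gene SAP11 at 4.34 ± 0.28 (adjusted p = 1.4e-12), and the AP2 factors AP2-5 at 4.31 ± 0.14 (adjusted p = 4.56e-18) and RSR1 at 3.81 ± 0.31 (adjusted p = 1.82e-10), or 4.45 without replicate 4 at 0 h. RSR1 is known as a regulator of starch synthesis in rice endosperm. The bZIP factors were divided, with 4 of 17 higher and 4 lower, and 2 lower without replicate 1 at 0 h. With spike-in centring 5 were called higher and 0 lower. BZIP52 rose by 4.15 ± 0.26 (adjusted p = 1.57e-12) and BZIP50, which acts in the endoplasmic reticulum stress response, by 2.56 ± 0.16 (adjusted p = 6.16e-13). BZIP23, an ABA-response factor, fell by 1.22 ± 0.14 (adjusted p = 4.7e-08) and lost its call with spike-in centring.

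**Figure D3:**
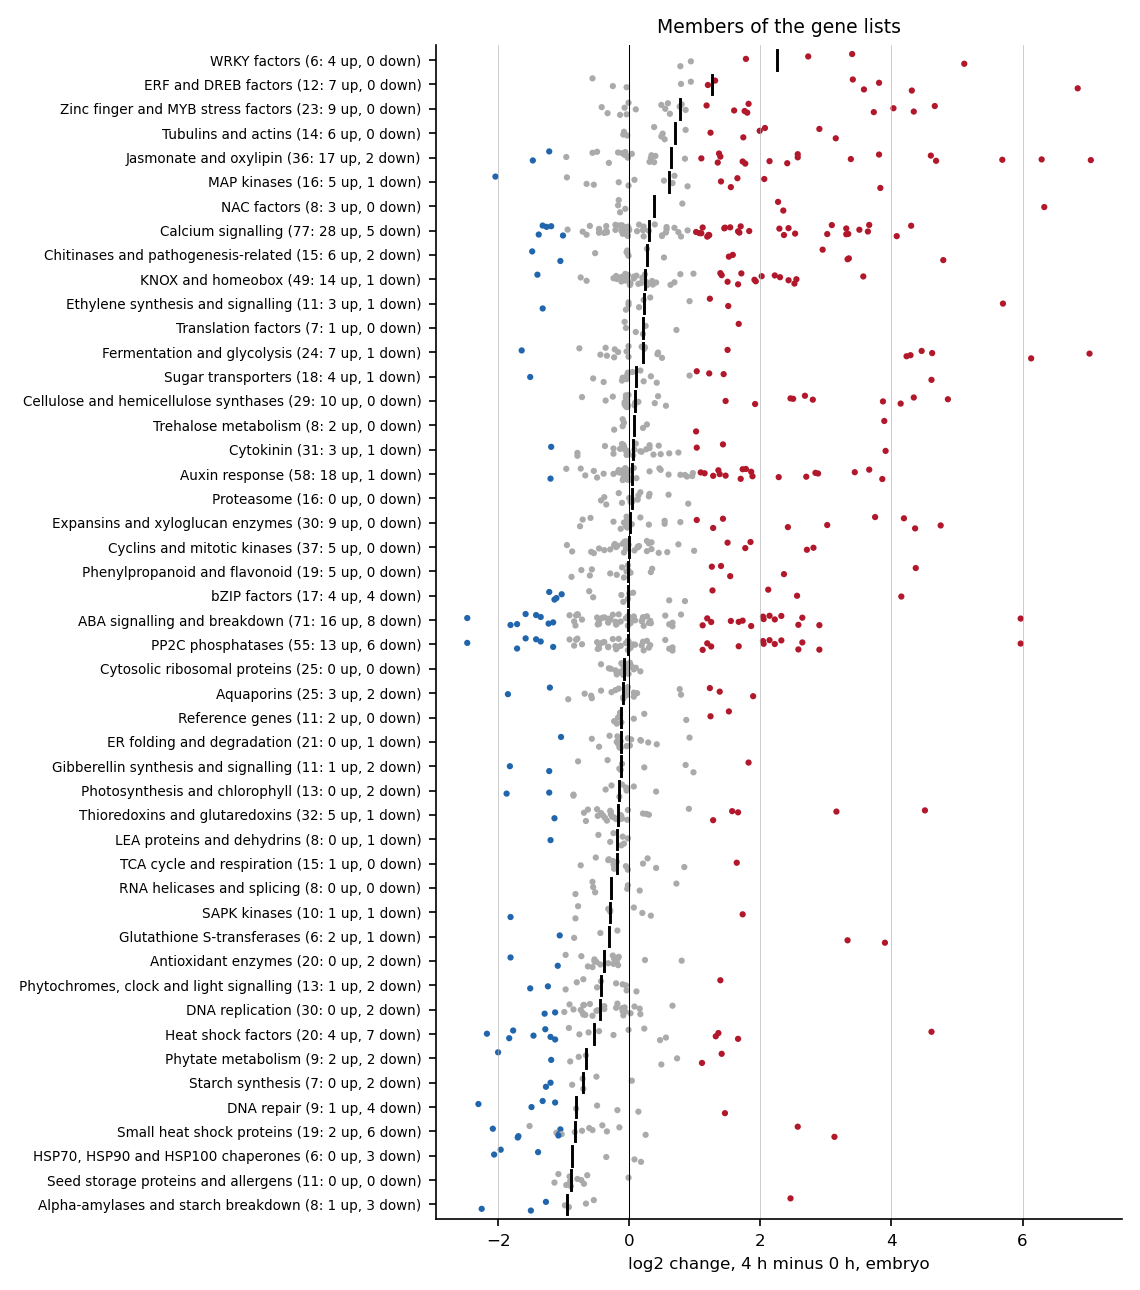
Log2 change by 4 h of every member of the 48 gene lists, 1 row per list ordered by median, with red points called higher, blue points called lower, grey points not called and a black bar at the median. WRKY factors have the highest median and alpha-amylases and starch breakdown the lowest, and ribosomal proteins, with no call, lie close to 0.

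Hormone genes changed in part. In ethylene synthesis and signalling 3 of 11 rose and 1 fell, all of them receptors. ETR2 read 2.66, 2.82 and 2.46 at 0 h and 8.57, 8.12 and 8.36 at 4 h, a rise of 5.70 ± 0.15 (adjusted p = 3.14e-19), seen on 1 of its 2 probe sets. ERS2 rose by 1.51 ± 0.18 (adjusted p = 1.68e-07) and ETR3 by 1.23 ± 0.18 (adjusted p = 5.12e-06), the latter not called with quantile normalization or 75th percentile centring. ETR4 read 9.52, 9.68 and 10.06 at 0 h and 8.20, 8.43 and 8.67 at 4 h, a change of -1.32 ± 0.25 (adjusted p = 0.00013), not called with spike-in centring. The ACC synthases ACS1 and ACS2 and the oxidase ACO1, all of ethylene synthesis, were among the members not called.

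Of 71 genes on the ABA list 16 rose (22.5%) and 8 fell (11.3%), and most members were PP2C phosphatases, of which only a subgroup is known to act in ABA signalling. Among 55 PP2C genes 13 rose and 6 fell. With 75th percentile centring the split turned, to 13 higher and 15 lower on the ABA list and 10 and 11 among the PP2C genes. PP2C33 read 2.80, 2.86 and 2.90 at 0 h and 9.13, 8.76 and 8.59 at 4 h, a rise of 5.97 ± 0.15 (adjusted p = 1.33e-19). PP2C30 read 7.83, 7.63 and 8.14 at 0 h and 5.14, 5.33 and 5.72 at 4 h, a change of -2.47 ± 0.58 (adjusted p = 0.00121), the largest named fall after GER3. PP2C68 fell by 1.71 ± 0.39 (adjusted p = 0.00104). PP2C30 and PP2C68, both of the ABA-related subgroup in rice, were not called from the first harvest day alone.

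The ABA 8'-hydroxylases, which break ABA down, moved in opposite directions. ABA8OX1 read 7.53, 7.29 and 7.37 at 0 h and 9.21, 9.13 and 9.43 at 4 h, a rise of 1.86 ± 0.24 (adjusted p = 4.36e-07). ABA8OX2 read 7.31, 7.75 and 7.62 at 0 h and 6.05, 6.49 and 6.47 at 4 h, a change of -1.23 ± 0.21 (adjusted p = 4.28e-05) that was not called with spike-in centring. SAPK3, an osmotic stress and ABA kinase, fell by 1.81 ± 0.21 (adjusted p = 9.39e-08), while SAPK5 rose by 1.73 ± 0.21 (adjusted p = 1.57e-07). VP1, a seed maturation factor, differed by 0.79 ± 0.16, under the fold required.

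Gibberellin genes held 1 rise and 2 falls among 11, and 3 rises and 1 fall with spike-in centring. GAMYB, the activator of amylase genes in the aleurone, read 8.38, 7.65 and 7.40 at 0 h and 9.81, 9.54 and 9.52 at 4 h, a rise of 1.82 ± 0.19 (adjusted p = 1.72e-08). The falls were in early synthesis genes, ks1 by 1.82 ± 0.17 (adjusted p = 2.38e-09) and KO2 by 1.22 ± 0.19 (adjusted p = 6.69e-06), the latter not called with spike-in centring. SLR1, the DELLA repressor, differed by 0.86 ± 0.15, under the fold required.

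Among 58 auxin response genes 18 rose (31.0%) and 1 fell. IAA31 read 4.53, 5.87 and 5.30 at 0 h and 8.90, 9.16 and 9.23 at 4 h, a rise of 3.86 ± 0.28 (adjusted p = 2.43e-11) on 1 of its 2 probe sets. GH3.2 rose by 3.66 ± 0.31 (adjusted p = 2.79e-10) and IAA12 by 3.44 ± 0.28 (adjusted p = 1.49e-10). Of 31 cytokinin genes 3 rose and 1 fell, shares no higher than the background, and 2 rose and 3 fell with 75th percentile centring. The response regulator RR6 read 5.30, 5.31 and 4.79 at 0 h and 8.93, 9.02 and 9.18 at 4 h, a rise of 3.91 ± 0.17 (adjusted p = 7.35e-16).

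Calcium and MAP kinase genes were called often. Of 77 calcium signalling genes 28 rose (36.4%) and 5 fell (6.49%), with a median of 0.30. CML10, a calmodulin-like protein, read 5.24, 5.82 and 4.57 at 0 h and 9.74, 9.25 and 9.54 at 4 h, a rise of 4.30 ± 0.30 (adjusted p = 1.14e-11) on 1 of its 2 probe sets. CML5 rose by 4.08 ± 0.16 (adjusted p = 1.12e-16) and the kinase CIPK1 by 3.66 ± 0.27 (adjusted p = 2.4e-11), and CML8 fell by 1.38 ± 0.17 (adjusted p = 2.64e-07). TPC1, a calcium channel gene outside that count, read 6.67, 6.48 and 6.06 at 0 h and 4.50, 4.19 and 4.66 at 4 h, a change of -1.95 ± 0.22 (adjusted p = 3.71e-08) on 1 of its 2 probe sets. Among 16 MAP kinases 5 rose and 1 fell. MPK14 read 6.89, 7.02 and 6.53 at 0 h and 10.83, 10.61 and 10.51 at 4 h, a rise of 3.83 ± 0.15 (adjusted p = 1.56e-16), and MPK16 fell by 2.04 ± 0.25 (adjusted p = 1.93e-07).

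Cell wall and cytoskeleton genes rose with no fall called in their lists. The counts were 10 of 29 cellulose and hemicellulose synthases (34.5%), 9 of 30 expansins and xyloglucan enzymes (30.0%) and 6 of 14 tubulins and actins (42.9%). At an unadjusted p below 0.05, with no minimum fold, 4, 5 and 0 members of these lists read lower in limma. With 75th percentile centring 1 cellulose or hemicellulose synthase and 2 expansin or xyloglucan genes were called lower. BC1L9, a COBRA-like protein of the family of the brittle culm gene, read 2.77, 3.07 and 3.08 at 0 h and 9.66, 9.83 and 9.84 at 4 h, a rise of 6.80 ± 0.28 (adjusted p = 3.04e-16). BC1L6, of the same family, rose by 5.49 ± 0.26 (adjusted p = 5.4e-15). CSLC genes belong to the family that makes the xyloglucan backbone. CSLC7 rose by 4.86 ± 0.26 (adjusted p = 5.37e-14) and CSLC9 by 4.34 ± 0.16 (adjusted p = 4.03e-17).

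CSLF6, which makes the mixed-linkage glucan of cereal walls, read 3.07, 3.47 and 3.35 at 0 h and 7.80, 7.38 and 7.13 at 4 h, a rise of 4.14 ± 0.22 (adjusted p = 6.86e-14) on 1 of its 3 probe sets. XTH8, a xyloglucan endotransglucosylase, read 3.12, 4.62 and 3.39 at 0 h and 8.90, 8.26 and 8.20 at 4 h, a rise of 4.75 ± 0.27 (adjusted p = 2.22e-13). EXPB4, a beta-expansin, rose by 4.36 ± 0.56 (adjusted p = 4.17e-07), and by 5.31 without replicate 4 at 0 h, which read 6.49 against 3.50 and 3.77. ACT2 rose by 3.15 ± 0.18 (adjusted p = 2.64e-13) and TUBB4 by 2.90 ± 0.23 (adjusted p = 1.44e-10), the latter on 2 of its 3 probe sets. ACT1, often used as a reference, rose by 1.24 ± 0.13 (adjusted p = 1.03e-08) and was not called with 75th percentile centring. Of 49 KNOX and homeobox genes 14 rose (28.6%) and 1 fell, led by Hox13 at 3.57 ± 0.25 (adjusted p = 1.1e-11).

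Cell cycle and DNA genes differed from these. Of 37 cyclins and mitotic kinases 5 rose (13.5%), near the background, with CYCP3-1 at 2.81 ± 0.16 (adjusted p = 2.07e-13) and CYCD4-2, a D-type cyclin, at 2.71 ± 0.16 (adjusted p = 2.12e-13). None of 30 DNA replication genes rose by the limma call, and 1 did with spike-in centring. At an unadjusted p below 0.05 in limma 1 read higher and 17 lower. Over all probe sets 32909 of 57194 met that p, so the number lower is not read as particular to the list. The call was met by 2 falls, against 7 with 75th percentile centring and 0 with spike-in centring: POLD1 and ORC1, both lost with spike-in centring, and ORC1 also from the first harvest day alone and without replicate 4 at 4 h. PCNA, the sliding clamp of DNA polymerase, read 7.58, 7.56 and 7.70 at 0 h and 7.87, 7.63 and 7.59 at 4 h. Of 9 DNA repair genes 4 fell and 1 rose, and 2 fell with spike-in centring. MSH5, a mismatch repair homologue of meiosis, read 8.06, 7.48 and 7.66 at 0 h and 5.22, 5.31 and 5.76 at 4 h, a change of -2.30 ± 0.21 (adjusted p = 1.97e-09). KU70 fell by 1.49 ± 0.15 (adjusted p = 4.16e-09) on 2 of its 6 probe sets, and MRE11, named after its value was seen, by 1.13 ± 0.12 (adjusted p = 2.67e-08), a call lost with spike-in centring. The photolyase PHR, which repairs ultraviolet damage, rose by 1.46 ± 0.19 (adjusted p = 5.55e-07).

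Several heat shock genes fell. The chaperone list matched 6 genes, of the HSP90 and HSP100 groups and none of HSP70, and 3 fell, all of the HSP100 group that frees proteins from aggregates. The gene hsp101 read 12.20, 12.18 and 12.04 at 0 h and 9.88, 10.09 and 10.28 at 4 h, a change of -2.06 ± 0.31 (adjusted p = 4.94e-06). CLPB-M read 9.82, 9.52 and 9.64 at 0 h and 7.49, 7.72 and 7.89 at 4 h, a change of -1.96 ± 0.26 (adjusted p = 7.19e-07), and CLPB-C fell by 1.39 ± 0.12 (adjusted p = 5.52e-10). The HSP90 genes HSP81-1, HSP81-2 and HSP81-3 changed by -0.35, 0.08 and 0.18 and were not called.

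Small heat shock proteins, which hold unfolding proteins soluble, had 6 falls and 2 rises among 19 genes, and 3 falls without replicate 1 at 4 h. The falls were 4 with spike-in centring or quantile normalization and 9 with 75th percentile centring. HSP17.8 read 9.49, 9.07 and 9.18 at 0 h and 7.31, 7.74 and 6.46 at 4 h, a change of -2.08 ± 0.36 (adjusted p = 4.32e-05). HSP18.8, on a probe set of a type that can also read near-identical transcripts, went the other way, from 5.11, 5.69 and 4.86 to 8.62, 8.20 and 8.22, a rise of 3.13 ± 0.26 (adjusted p = 1.9e-10), and HSP17.9B rose by 2.57 ± 0.37 (adjusted p = 2.7e-06).

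Of 20 heat shock factors, the transcription factors of these genes, 7 fell and 4 rose, with the same counts whichever of the 6 arrays was left out. With spike-in centring 4 fell and 4 rose, and with 75th percentile centring 9 fell. HSFA2A read 7.95, 7.84 and 7.91 at 0 h and 5.36, 6.0 and 5.85 at 4 h, a change of -2.17 ± 0.15 (adjusted p = 1.32e-11) on all 3 of its probe sets. HSFB2B fell by 1.83 ± 0.18 (adjusted p = 4.3e-09) on 1 of its 2 probe sets, and HSFC2A by 1.77 ± 0.30 (adjusted p = 3.4e-05). HSFA3 read 6.56, 6.89 and 6.71 at 0 h and 11.45, 11.10 and 11.44 at 4 h, a rise of 4.61 ± 0.56 (adjusted p = 1.72e-07). HSFB1 rose by 1.66 ± 0.18 (adjusted p = 3.73e-08), and HSFA9, a seed maturation factor in sunflower, by 1.36 ± 0.16 (adjusted p = 1.28e-07).

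The largest fall of all was that of GER3, a germin-like protein. It read 7.29, 6.76 and 7.81 at 0 h and 2.19, 2.18 and 2.19 at 4 h, a change of -5.10 ± 0.17 (adjusted p = 7.08e-18), and the 4 h values lie on the floor of the arrays. No other named gene fell by more than 2.47. AMY3A, an alpha-amylase, read 7.09, 5.91 and 6.57 at 0 h and 4.91, 4.31 and 3.60 at 4 h, a change of -2.25 ± 0.31 (adjusted p = 1.33e-06). BIO1, of biotin synthesis, fell by 2.22 ± 0.19 (adjusted p = 5.94e-10), the protease FTSH6 by 2.11 ± 0.25 (adjusted p = 1.06e-07), the glutamate synthase GLT2 by 2.07 ± 0.13 (adjusted p = 9.27e-13) and the inositol phosphate kinase ITPK4 by 2.00 ± 0.22 (adjusted p = 2.93e-08). The phosphate transporter Pht1;4 fell by 1.95 ± 0.24 (adjusted p = 1.85e-07) and was not called when the 6 arrays were fitted alone.

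The level of endosperm transcripts differed between the groups, so it stands beside the falls. Of the 307 probe sets at least 3 units brighter in dry endosperm than in dry embryo, 3.58% were called lower in the embryo, and these 11 made up 0.454% of all falls. Without replicate 5 at 4 h, the array with the lowest endosperm signal, 2702 probe sets fell, 2358 of them among the 2425. Its part in single results was not tested beyond leaving the array out. None of 11 storage protein genes was called, with changes of -1.14 to -0.01. In limma 3 of them read lower at an unadjusted p below 0.05, 4 were called lower without replicate 4 at 4 h, and 8 with 75th percentile centring. Starch synthesis had 2 falls among 7 genes, neither called with spike-in centring. Sbe1 fell by 1.2 ± 0.17 (adjusted p = 1.64e-06), on 4 of its 8 probe sets, and SSII-1 by 1.27 ± 0.15 (adjusted p = 1.57e-07). AMY1A read 5.23, 9.87 and 6.97 at 0 h and 10.20, 9.96 and 9.29 at 4 h, so the groups overlapped, and its rise of 2.46 ± 1.0 (adjusted p = 0.0448) was 3.72 without replicate 4 at 0 h and lost its call without replicate 1 or 5 at 0 h or replicate 1 or 4 at 4 h. It was also not called with quantile normalization, with harvest day as a block, from day 8 alone or with the 6 arrays fitted alone.

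Ribosomal protein, proteasome and most late embryogenesis abundant genes on the lists were not called. None of 25 cytosolic ribosomal protein genes was called, with changes of -0.43 to 0.17 around a median dry level of 12.24, and none was called under the 75th percentile, spike-in or quantile scaling. At an unadjusted p below 0.05 in limma, 2 read higher and 5 lower. None of 16 proteasome genes was called, with changes of -0.43 to 0.90, though 5 read higher and 3 lower at an unadjusted p below 0.05 in limma, and with spike-in centring 1 was called higher. Among 8 genes of late embryogenesis abundant proteins and dehydrins, which protect dry cells, 1 fell. RAB21 read 14.17, 14.19 and 14.20 at 0 h and 14.08, 14.11 and 14.02 at 4 h, and Emp1 read 14.06, 14.11 and 14.02 at 0 h and 13.93, 13.96 and 13.98 at 4 h. Signals this bright leave little room above them, which limits what an array can show of a rise. RAB16D read 12.07, 12.11 and 12.17 at 0 h and 10.40, 11.10 and 11.25 at 4 h, a change of -1.2 ± 0.35 (adjusted p = 0.00733) that was lost with spike-in centring, on either harvest day alone and without replicate 1 at 4 h.

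Antioxidant and transport genes were mixed. None of 20 antioxidant enzymes rose by the limma call, and 2 fell. At an unadjusted p below 0.05 in limma 1 read higher and 13 lower, beside 32909 of 57194 probe sets in either direction. The falls were 1 without replicate 5 at 0 h, 3 without replicate 4 or 5 at 4 h and 4 with 75th percentile centring. With spike-in centring 1 fell and 1 rose. By contrast 2 of 6 glutathione S-transferases rose and 1 fell, and 2 rose and 2 fell with 75th percentile centring. The risers were GSTU6 at 3.90 ± 0.20 (adjusted p = 3.12e-14), on 1 of its 2 probe sets, and GST1 at 3.33 ± 0.37 (adjusted p = 4.81e-08). Of 32 thioredoxins and glutaredoxins 5 rose (15.6%, near the background) and 1 fell, led by GRXS5 at 4.51 ± 0.39 (adjusted p = 4.13e-10). Of 18 sugar transporters 4 rose and 1 fell, led by the monosaccharide transporter MST3, which read 2.75, 3.56 and 3.11 at 0 h and 8.61, 7.39 and 7.26 at 4 h, a rise of 4.61 ± 0.30 (adjusted p = 2.73e-12). Among 25 aquaporins 3 rose (12.0%) and 2 fell (8.0%), near the background, and 2 rose and 3 fell with 75th percentile centring. The seed vacuole aquaporin TIP3;2 fell by 1.85 ± 0.19 (adjusted p = 8.57e-09), while the plasma membrane aquaporin PIP2;4 rose by 1.89 ± 0.41 (adjusted p = 0.00061). Chib3H-a, a class III chitinase, rose by 4.79 ± 0.41 (adjusted p = 4.56e-10), and 6 of 15 chitinase and pathogenesis-related genes rose and 2 fell. CCR1, a cinnamoyl-CoA reductase of lignin synthesis, read 6.63, 6.63 and 6.66 at 0 h and 10.76, 11.00 and 11.25 at 4 h, a rise of 4.37 ± 0.34 (adjusted p = 5.63e-11).

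Within the harvest days that held both times, the steep changes kept their direction. That outcome was set by the choice of genes whose groups did not overlap. For the 15 largest named rises, the difference between the replicate 1 arrays of day 1 was 5.17 to 8.02 and that between the day 8 arrays 5.21 to 6.85. For the 15 largest named falls the ranges were -5.10 to -1.39 on both days. Sizes moved both ways among the falls. HSP17.8, at -2.08 over all arrays, was -1.39 on day 8, and MSH5, at -2.30, was -2.84 on day 1. Day 1 held replicate 1 alone at each time, and day 8 held replicate 4 alone at 4 h. Fits to a day alone therefore take most of their spread from the other groups, and their numbers of calls are not given here.

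Levels at later times are set beside the 4 h values as a description, because later comparisons share the 4 h arrays. PDC1 averaged 13.15 at 4 h, 12.67 at 8 h and 11.35 at 24 h, and NSHB2 averaged 11.08, 11.90 and 11.85. OPR1 averaged 12.41, 10.77 and 7.92. WRKY76 averaged 2.34 in the dry embryo, 7.44 at 4 h, 2.99 at 8 h and 2.15 at 24 h, so it was near its dry level at the next time sampled. HSFA3 averaged 11.33 at 4 h, 8.39 at 8 h and 4.05 at 24 h, the last below its dry level of 6.72. XTH8 averaged 8.46 at 4 h and 10.34 at 24 h, and hsp101 averaged 10.08 at 4 h, 7.81 at 8 h and 4.25 at 24 h.

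**Figure D4:**
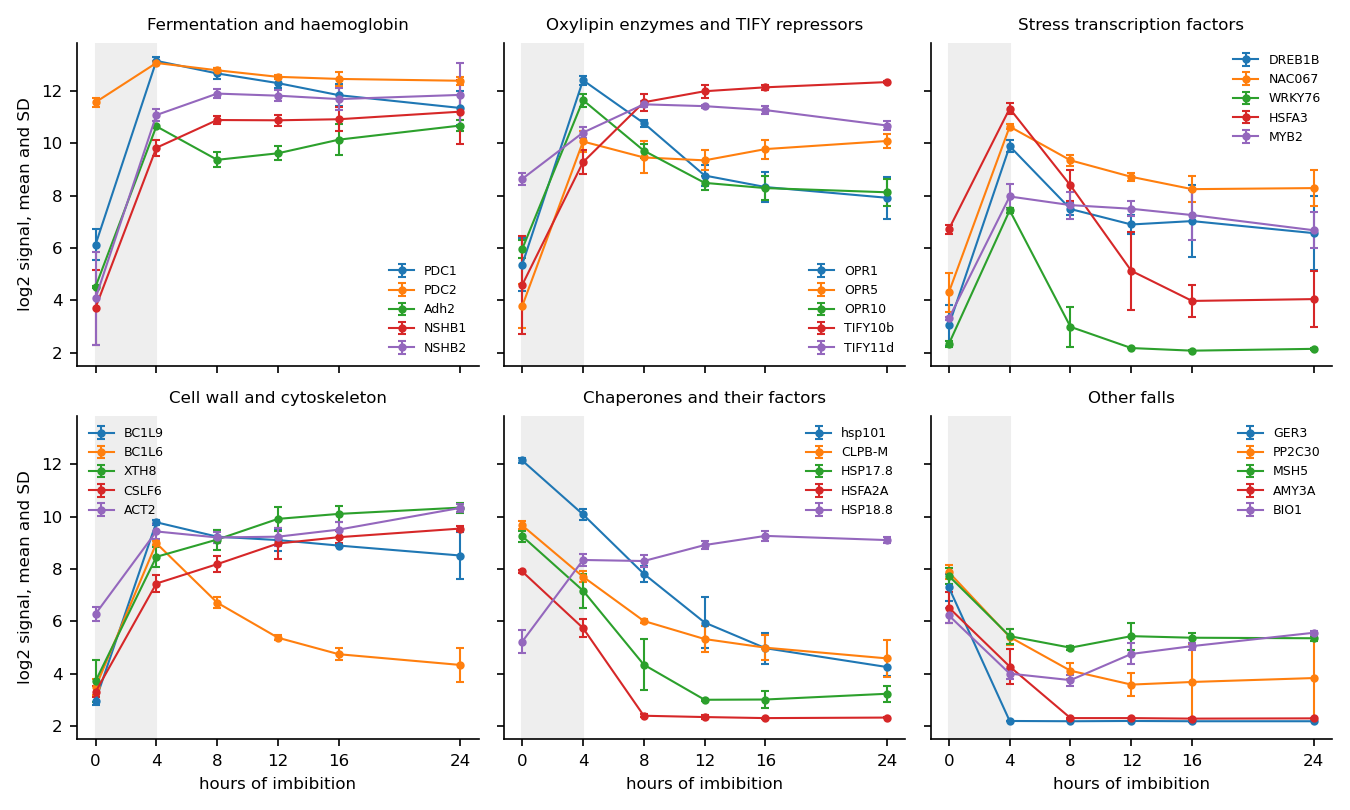
Mean log2 signal and SD of 3 embryo arrays at 0, 4, 8, 12, 16 and 24 h for 30 named genes in 6 groups, with the interval from 0 to 4 h shaded. WRKY76 and HSFA3 are highest at 4 h, NSHB1, NSHB2 and PDC2 stay above their dry level at every later time, and hsp101 goes on to lower levels.

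The change in the embryo was compared with that in the endosperm, which has its own arrays at both times. At these times only the first harvest day held arrays of both tissues. In endosperm 1871 probe sets rose (3.27%) and 149 fell (0.261%). Of the embryo rises 40.8% were also endosperm rises, and of the endosperm rises 88.7% were embryo rises. For falls the shares were 4.41% of the embryo's and 71.8% of the endosperm's, and 1 probe set was called in opposite directions. The test of the difference itself called 2099 probe sets (3.67%) higher and 1019 (1.78%) lower in the embryo's change. Of the embryo's rises 49.6% had such a difference, and of its falls 34.3%.

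Among named genes the difference was largest for Adh2. It rose by 6.13 in the embryo and changed by 0.57 in endosperm, a difference of 5.55 ± 0.45 (adjusted p = 1.68e-09). BC1L6 differed by 5.03 ± 0.37 (adjusted p = 3.21e-10), XTH8 by 4.51 ± 0.39 (adjusted p = 5.07e-09), CSLF6 by 4.37 ± 0.32 (adjusted p = 2.85e-10) and BC1L9 by 4.07 ± 0.39 (adjusted p = 2.95e-08). For PDC1 the rise was 7.02 in embryo and 5.32 in endosperm, and the difference of 1.70 was not called (adjusted p = 0.154). DREB1B rose by 6.84 and 5.54, with a difference that was not called either (adjusted p = 0.372). On the falling side the difference was -2.27 ± 0.45 for the alpha-amylase AMY3E (adjusted p = 0.000778), -2.11 ± 0.24 for GER3 (adjusted p = 3.72e-07) and -1.88 ± 0.36 for ETR4 (adjusted p = 0.000511). AMY3E itself changed by -0.98 in embryo, under the fold required, and by 1.29 in endosperm.

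**Figure D5:**
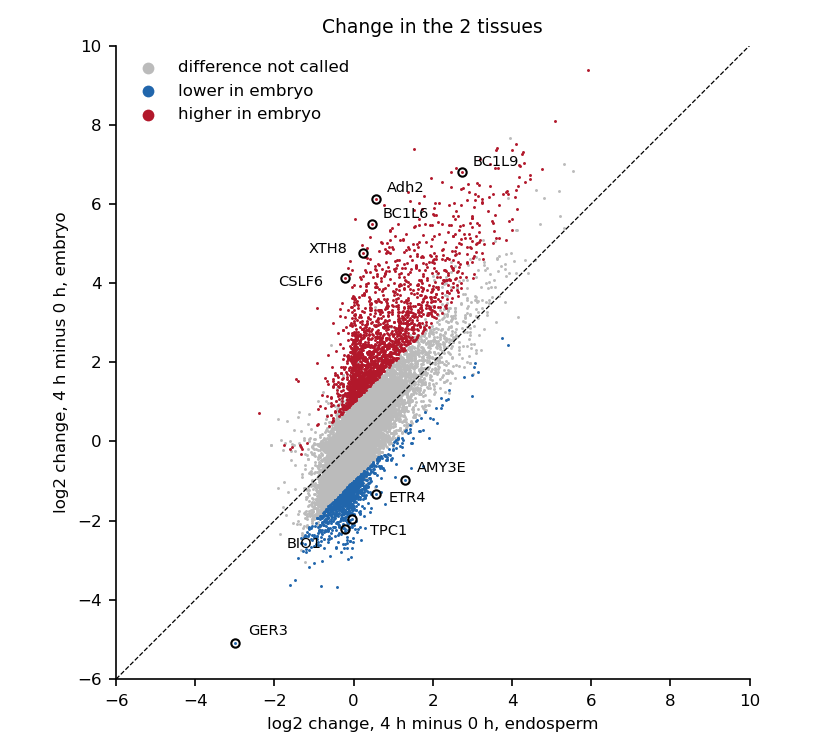
Log2 change by 4 h in endosperm (x axis) and embryo (y axis) of each rice probe set, coloured by the call of the difference, with the dashed line where both changes are equal and circles on the 10 named genes with the largest differences. Adh2, BC1L6, XTH8 and CSLF6 lie near 0 on the endosperm axis and above 4 on the embryo axis.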

How the data were processed

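Biotin-labelled, amplified RNA (20 ug of cRNA, per the labels' protocols) was read on Affymetrix rice arrays. The log2 signals were made by the authors with GCRMA, per the submitters' processing notes, and were analysed unchanged. The sources used here do not give its version, or say whether both tissues were normalised together.

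Tissue and time in the labels set the groups. In limma 3.58.1 (R 4.3.3), 12 group means were fitted to 36 arrays with empirical Bayes moderation, for embryo 4 h minus 0 h and for that change minus the endosperm's. Calls required a Benjamini-Hochberg adjusted p below 0.05 and a log2 difference of at least 1. Spike-in means were compared by exact 2-sided permutation, whose lowest possible p with 3 against 3 arrays is 0.1.

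Of the 57194 rice probe sets, 22436 had 1 gene in the array annotation, 95 several and 34663 none. Symbols were updated through the RefSeq gene table of assembly GCF_034140825.1, which was used for names, chromosomes and neighbours only. A gene was read by its brightest probe set. Genes were named by rule: the 15 largest rises and 15 largest falls whose groups did not overlap, up to 3 called members each way of 48 lists with at least 5 genes, sentinel genes, and the 5 largest tissue differences each way. A planned part of the rule, for genes with only a description, was not used. Members, lists and rule were chosen with earlier results of these data known. The fit was tested on simulated data. Scaling, moderation, filters, blocks, harvest days and single arrays were varied, as given in the closing section. The number of arrays limits precision.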

Additional observations from a re-analysis of the deposited data

Results flagged for a closer look

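The change over the first 4 h differed between embryo and endosperm by limma's test of the difference itself in 2099 probe sets that were higher in the embryo's change and 1019 that were lower. The 10 named genes with the largest such differences are listed because the tissues differed. The embryo's change exceeded the endosperm's by 5.55 for Adh2, 5.03 for BC1L6, 4.51 for XTH8, 4.37 for CSLF6 and 4.07 for BC1L9. It lay below the endosperm's, at -2.27 for AMY3E, -2.11 for GER3, -2.01 for BIO1, -1.91 for TPC1 and -1.88 for ETR4. GER3 was at the floor of the embryo arrays at 4 h, so its difference is a lower limit in size. Single arrays were not screened for outliers, since groups held 3.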

How the results depend on the processing

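Counts of called probe sets in the embryo stayed within 1.5 times of 4071 rises and 2425 falls under all alternatives but the following. With no minimum fold 7493 rose and 20948 fell. Centring on the 75th percentile gave 4688 falls, and centring on the spike-ins gave 904. For the tissue difference, no minimum fold gave 3464 higher and 4000 lower, and spike-in centring gave 211 lower. In the embryo the median change was -0.34 with 75th percentile centring and 0.33 with spike-in centring. For the tissue difference, spike-in centring lowered the count in both directions, with 1471 called higher. The reason for these shifts in number was not tested. Leaving out 1 array gave 3877 to 4203 rises and 2170 to 2702 falls in the embryo, and 1902 to 2241 higher and 862 to 1220 lower differences. With a replicate block the embryo counts were 4072 and 2435 and those of the difference 2133 and 1047. Replicate numbers paired the arrays weakly at most: deviations from the group means correlated at 0.15, 0.03 and 0.13 for numbers 1, 4 and 5. Numbers 1 and 5 matched themselves best and number 4 did not, so the block is not taken as the design. Of 190 named genes 178 were called, and none of these reversed direction. Centring could not have reversed any, since it shifts every change by the same amount, under 1 unit. Under every alternative that gave the gene a value, 129 of the 178 stayed called. Spike-in centring ended 30 of these calls, harvest day 8 alone 15 and the first harvest day alone 12, where fewer arrays entered. Of 1824 counts over 48 lists and the alternatives, 1635 were within 1.5 times of the reported count, and 57 of the 189 others came from no minimum fold. Of 35 called named genes with several probe sets, 19 had probe sets that were not called and 0 had a probe set called the opposite way. Of the 178 called named genes, 28 rest on probe set types that can read near-identical transcripts. Besides NSHB1 and HSP18.8 they include TIFY10a, TIFY11b, TIFY5, AP2-5, RSR1, EXPB4, CSLC7, GAMYB, ks1 and KO2. ABA8OX2, CLPB-M, HSFA2A, GST1, CML5, TPC1, Sbe1 and Pht1;4 are also among them. Changes that reach the floor of the arrays are understated.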
